A study of Homo sapiens with 3 samples.

Results

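The TCF/LEF factors and a set of β-catenin feedback targets were examined in CAL27, a human oral squamous cell carcinoma (OSCC) line, and in its derivatives resistant to 5-fluorouracil (5FU) and to oxaliplatin (OXA). The set was given as a list of 10 gene symbols, and all 10 were found among the 19220 genes of the count table. It holds the 4 TCF/LEF factors (TCF7, LEF1, TCF7L1 and TCF7L2) and 6 feedback targets (AXIN2, NKD1, RNF43, ZNRF3, TNFRSF19 and BAMBI). Expression was measured by RNA-seq in 3 libraries. CAL27 cells, labelled wild type, grew without drug. CAL27/5FU cells, labelled 5-fluorouracil resistant, grew in 10 μM 5FU, and CAL27/OXA cells, labelled oxaliplatin resistant, grew in 10 μM OXA. Selection of the 5FU-resistant cells had used rising doses of 5FU. All were kept in high-glucose DMEM with fetal bovine serum, and the resistant lines were maintained under drug, so that the presence of the drug and the resistant state cannot be told apart. Whether a resistant line is 1 clone is not given in the sources used here. The CAL27 library held 41786182 counts, that of CAL27/5FU held 37297713 and that of CAL27/OXA held 43455488.

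In the canonical WNT pathway, stabilised β-catenin enters the nucleus and binds a TCF/LEF protein that already sits on DNA. Without β-catenin these factors recruit corepressors of the TLE family. TCF7 and LEF1 are mostly known as activators in this pathway, TCF7L1 is mostly known as a repressor, and TCF7L2 can act either way. Several targets of β-catenin feed back on the pathway: AXIN2 is a scaffold of the complex that degrades β-catenin, RNF43 and ZNRF3 are membrane ubiquitin ligases that remove Frizzled receptors, and NKD1 binds and inhibits Dishevelled. TNFRSF19 (also called TROY) is a receptor of the TNF receptor superfamily, and BAMBI is a pseudoreceptor that dampens TGF-β and BMP signals.

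Each line had 1 library in the columns used, so the differences below could not be set against replicates, and p-values are not given. Counts were scaled between libraries with TMM factors and are given as CPM, the counts of a gene relative to the scaled library size. Log2 ratios cover the 13676 genes that averaged 10 counts or more over the libraries, and only a difference of more than 2-fold was called. A gene low in 1 library can pass this filter through another, and the filter can then help decide its call. Intervals are 95% and come from counting error alone: exact Poisson for a level and exact Clopper-Pearson for a ratio. They leave out the variation between cultures, which 1 library cannot show. In bulk RNA, fewer cells that express a gene and less RNA of it per cell cannot be told apart.

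Of the 8 members that passed the filter, LEF1 and TCF7 had the largest ratios in both resistant lines, while TCF7L1 and TCF7L2 were lower or little different. LEF1 (ENSG00000138795.9, chromosome 4, 108047545 to 108168956 on the minus strand of GRCh38) had 57 counts in CAL27, as against 327 in CAL27/5FU and 357 in CAL27/OXA. These are 1.46, 8.36 and 8.04 CPM, so both resistant libraries lay well above the parental one and close to each other. The log2 ratio to CAL27 was 2.47 (2.10 to 2.95) in CAL27/5FU and 2.42 (2.05 to 2.89) in CAL27/OXA. In fold terms this is 5.56 and 5.35. The direct log2 ratio of CAL27/OXA to CAL27/5FU was -0.06, and its interval of -0.28 to 0.16 includes 0.

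TCF7 (ENSG00000081059.19, chromosome 5, 134114711 to 134151865 on the plus strand) had 59, 307 and 261 counts in CAL27, CAL27/5FU and CAL27/OXA, or 1.51, 7.84 and 5.88 CPM. Again the parental library was the low one. The log2 ratio was 2.34 (1.97 to 2.80) in CAL27/5FU and 1.92 (1.54 to 2.39) in CAL27/OXA, which is 5.05-fold and 3.79-fold. Unlike LEF1, TCF7 was somewhat lower in CAL27/OXA than in CAL27/5FU, with a log2 ratio of -0.41 (-0.66 to -0.17). LEF1 ranked 238 and TCF7 ranked 276 of the 13676 tested genes by ratio in CAL27/5FU, and they ranked 207 and 319 in CAL27/OXA. For both genes, the whole interval was past 2-fold in each resistant line.

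TCF7L1 (ENSG00000152284.4, chromosome 2, 85133410 to 85310388, plus strand) had 643 counts in CAL27, as against 324 in CAL27/5FU and 655 in CAL27/OXA. Its low library was CAL27/5FU at 8.28 CPM, against 16.5 CPM in CAL27 and 14.7 CPM in CAL27/OXA. Its log2 ratio to CAL27 was -0.99 (-1.19 to -0.80) in CAL27/5FU, just inside 2-fold, and -0.16 (-0.32 to -0.00) in CAL27/OXA. Set directly against CAL27/5FU, TCF7L1 had a log2 ratio of 0.83 (0.64 to 1.03) in CAL27/OXA. TCF7L2 (ENSG00000148737.16, chromosome 10, 112950250 to 113167678, plus strand) had 945, 599 and 781 counts in the same order. Its level was highest in CAL27, with log2 ratios of -0.66 (-0.81 to -0.52) in CAL27/5FU and -0.46 (-0.60 to -0.33) in CAL27/OXA, both within 2-fold.

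**Figure D1:**
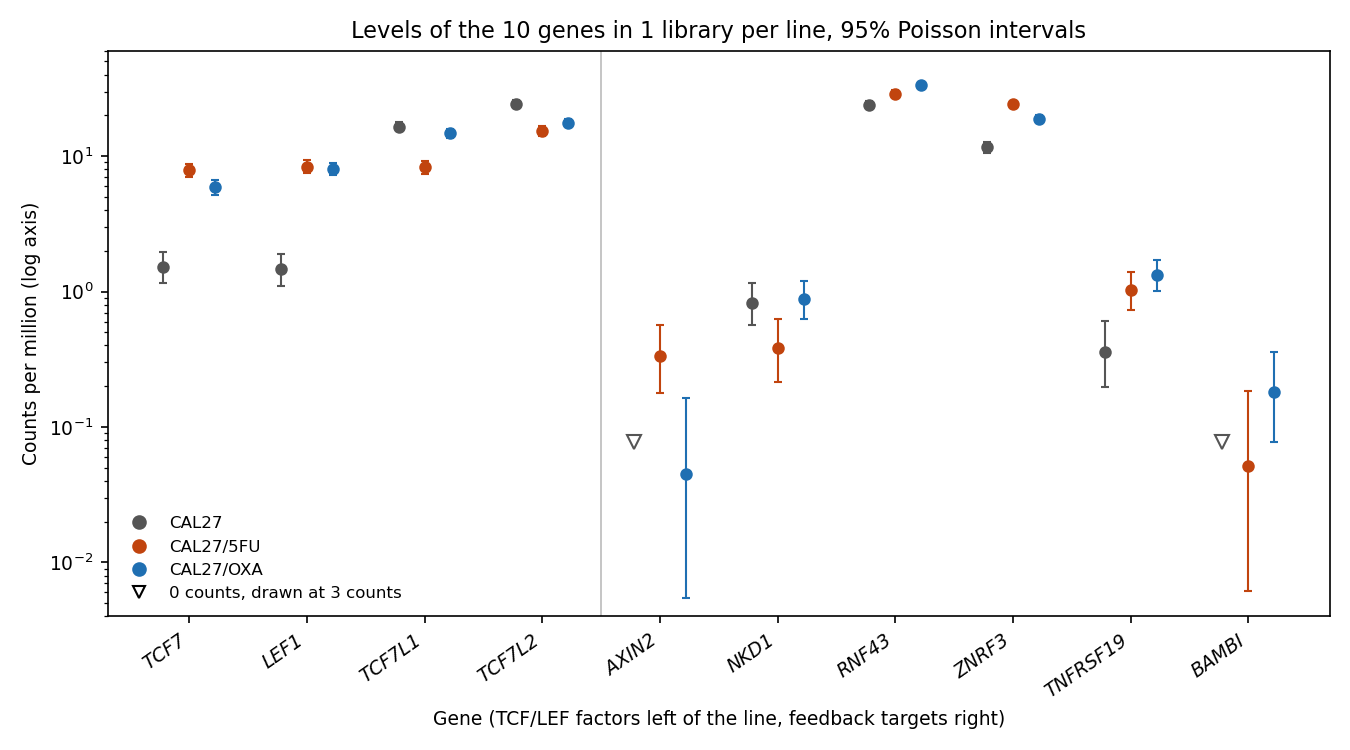
Levels of the 10 genes in CPM (log axis) in 1 library each of CAL27, CAL27/5FU and CAL27/OXA; bars are 95% Poisson intervals and open triangles mark 0 counts, drawn at the level of 3 counts. TCF7 and LEF1 sit at 1.51 and 1.46 CPM in CAL27 and between 5.88 and 8.36 CPM in the resistant lines, while AXIN2 and BAMBI are close to 0 throughout.

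The 4 factors share a DNA-binding HMG box, and it was therefore checked how far their transcripts could exchange reads. The longest stretch that any pair shared exactly in GENCODE 29 transcripts was 29 bases, between LEF1 and TCF7L1, and the next was 26 bases, between TCF7L1 and TCF7L2. Both stretches are coding, and they are shown because they are the longest exact matches between pairs of these genes. Similar stretches with mismatches were not searched. In capitals, every base is identical in both genes.
LEF1 and TCF7L1: TATGGTAAGAAAAAGAAGAGGAAGAGAGA
TCF7L1 and TCF7L2: TACTACGAGCTGGCCCGGAAGGAGCG
The first stretch runs across an exon junction in both genes, chr4:108064359-108070665 (minus strand) for LEF1 and chr2:85306557-85307667 (plus strand) for TCF7L1. The second lies within 1 exon of each, at chr2:85306485-85306510 for TCF7L1 and chr10:113152366-113152391 for TCF7L2, both on the plus strand. For TCF7 the longest shared stretch was 17 bases, with TCF7L2. A read longer than these stretches differs between the factors at 1 base or more; the read length is not given in the sources used here.

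Relative to gene length, the make-up of the TCF/LEF transcripts differed between the lines more than their sum. The deposited FPKM values of the 4 genes added up to 11.8 in CAL27, as against 12.3 in CAL27/5FU and 14.1 in CAL27/OXA. FPKM rests on library totals, and the TMM factors were 0.932, 1.05 and 1.02 in the same order. Dividing by them would put the sum of CAL27/5FU below that of CAL27. TCF7 and LEF1 together made up 7.28% of the FPKM sum in CAL27, as against 42.9% in CAL27/5FU and 31.2% in CAL27/OXA. In FPKM, the ratio of TCF7 and LEF1 to TCF7L1 and TCF7L2 was 0.0785 (0.0650 to 0.0948) in CAL27. It was 0.750 (0.677 to 0.830) in CAL27/5FU and 0.453 (0.412 to 0.498) in CAL27/OXA, and none of the 3 counting intervals overlapped. This ratio is taken within a library and does not depend on the scaling between libraries. No factor took more than 32.9% of the sum in CAL27/5FU, whereas TCF7L2 alone took 48.2% and TCF7L1 44.5% in CAL27. TCF7L1 was the leading factor in CAL27/OXA, with 36.6%.

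**Figure D2:**
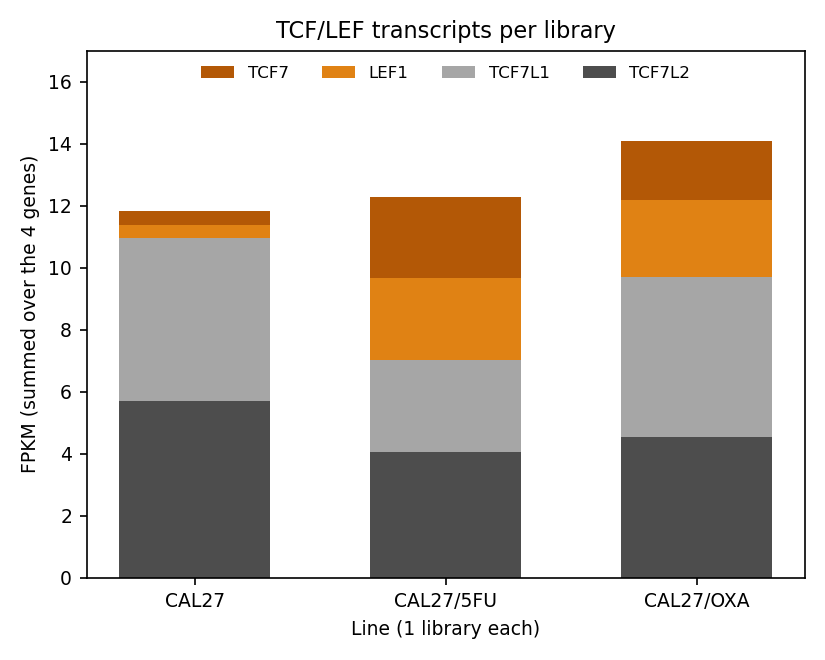
Stacked FPKM values of TCF7, LEF1, TCF7L1 and TCF7L2 in each of the 3 libraries. The bars reach 11.8, 12.3 and 14.1 FPKM, and the part of TCF7 and LEF1 grows from 0.861 FPKM in CAL27 to 5.27 and 4.39 in the resistant lines.

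The order of the members by level also differed between the lines. In FPKM, the order in CAL27 was TCF7L2 (5.70), TCF7L1 (5.27), RNF43 (4.17), ZNRF3 (1.65), TCF7 (0.449), LEF1 (0.412), TNFRSF19 (0.0919) and NKD1 (0.0878), with AXIN2 and BAMBI at 0 counts. The counting intervals overlapped for the neighbours TCF7L2 and TCF7L1, TCF7 and LEF1, and TNFRSF19 and NKD1. In CAL27/5FU, RNF43 led with 5.70 FPKM, followed by TCF7L2 (4.05), ZNRF3 (3.85), TCF7L1 (2.98), LEF1 (2.65) and TCF7 (2.62). There, the intervals of TCF7L2 and ZNRF3 overlapped, as did those of TCF7L1, LEF1 and TCF7. In CAL27/OXA the order was RNF43 (6.48), TCF7L1 (5.16), TCF7L2 (4.53), ZNRF3 (2.91), LEF1 (2.48) and TCF7 (1.91), and the intervals of TCF7L1 and TCF7L2 overlapped, as did those of ZNRF3 and LEF1. In every library TNFRSF19, NKD1, AXIN2 and BAMBI stayed under 0.4 FPKM.

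Of the feedback targets, the ubiquitin ligases ZNRF3 and RNF43 had the highest FPKM in each library. ZNRF3 (ENSG00000183579.15, chromosome 22, 28883592 to 29057487, plus strand) had 452 counts in CAL27, as against 945 in CAL27/5FU and 830 in CAL27/OXA. Both resistant libraries lay above the parental one. Its log2 ratio was 1.05 (0.89 to 1.22) in CAL27/5FU, just past 2-fold with an interval that reaches below it, and 0.69 (0.52 to 0.86) in CAL27/OXA. RNF43 (ENSG00000108375.12, chromosome 17, 58352500 to 58417595, minus strand), its close relative, had 925, 1128 and 1494 counts. These ratios were smaller, with log2 values of 0.28 (0.15 to 0.41) in CAL27/5FU and 0.50 (0.38 to 0.62) in CAL27/OXA, both within 2-fold.

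TNFRSF19 (ENSG00000127863.15, chromosome 13, 23570370 to 23676104, plus strand) was called higher in both resistant lines, at a low level. It had 14 counts in CAL27, as against 40 in CAL27/5FU and 59 in CAL27/OXA, or 0.359, 1.02 and 1.33 CPM. The log2 ratios were 1.39 (0.60 to 2.50) and 1.75 (1.03 to 2.84), wide because of the few counts in CAL27. Both calls were lost from FPKM with a pseudocount of 1 (0.25 and 0.33). NKD1 (ENSG00000140807.6, chromosome 16, 50548330 to 50649249, plus strand) had 32, 15 and 39 counts, with the low library being CAL27/5FU. Its log2 ratio there was -1.01, at the 2-fold line, with an interval of -2.09 to -0.17, and it was 0.09 (-0.62 to 0.82) in CAL27/OXA.

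AXIN2 and BAMBI were under the filter and have no call. AXIN2 (ENSG00000168646.12, chromosome 17, 65528563 to 65561647, minus strand), often used as a readout of β-catenin activity, had 0 counts in CAL27, as against 13 in CAL27/5FU and 2 in CAL27/OXA. A count of 0 allows up to 3 counts, which is 0.0770 CPM in CAL27, so AXIN2 was at least 4.31-fold higher in CAL27/5FU when its 13 counts are taken as exact. With the counting error of both libraries, the interval of the log2 ratio began at 1.60. No fold can be given for CAL27/OXA, since both libraries were at or under this limit. BAMBI (ENSG00000095739.10, chromosome 10, 28677342 to 28682939, plus strand) had 0, 2 and 8 counts. It was at least 2.34-fold higher in CAL27/OXA than in CAL27 on the same terms, with an interval of the log2 ratio that began at 0.58, and CAL27/5FU was under the limit. At 13 counts AXIN2 reached 0.0823 FPKM, and 28.1% of the genes in the FPKM table had a lower value in CAL27/5FU.

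Taking the members as a list, 8 of the 10 passed the filter: the 4 factors, NKD1, RNF43, ZNRF3 and TNFRSF19. In CAL27/5FU, 4 of these (LEF1, TCF7, TNFRSF19 and ZNRF3) were more than 2-fold higher, against 8.46% of all tested genes, and 1 (NKD1) was more than 2-fold lower, against 6.72%. In CAL27/OXA, 3 (LEF1, TCF7 and TNFRSF19) were higher, against 6.54%, and 0 were lower, against 9.28%. The median log2 ratio of the 8 genes was 0.67 in CAL27/5FU and 0.59 in CAL27/OXA, while that of all tested genes was -0.0035 and 0.0055. The members and the lists used here were chosen with results of these data known, so these counts are a description. Both comparisons share the CAL27 library. Set directly against CAL27/5FU, CAL27/OXA had 1 member higher, against 4.18% of all tested genes, and 0 members lower, against 8.38%. This member was NKD1, with a log2 ratio of 1.10 (0.30 to 2.16), and the call was lost with a prior count of 5, with a filter at a mean of 50 counts, which NKD1 does not pass, and with FPKM, where the lowest value was 0.08. When libraries were scaled by their totals, the median over all genes became 0.17 in CAL27/5FU and 0.14 in CAL27/OXA. This scaling also took the share of higher genes among those past 2-fold from 55.7% to 67.2% in CAL27/5FU and from 41.3% to 51.1% in CAL27/OXA, and left NKD1 within 2-fold in CAL27/5FU.

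**Figure D3:**
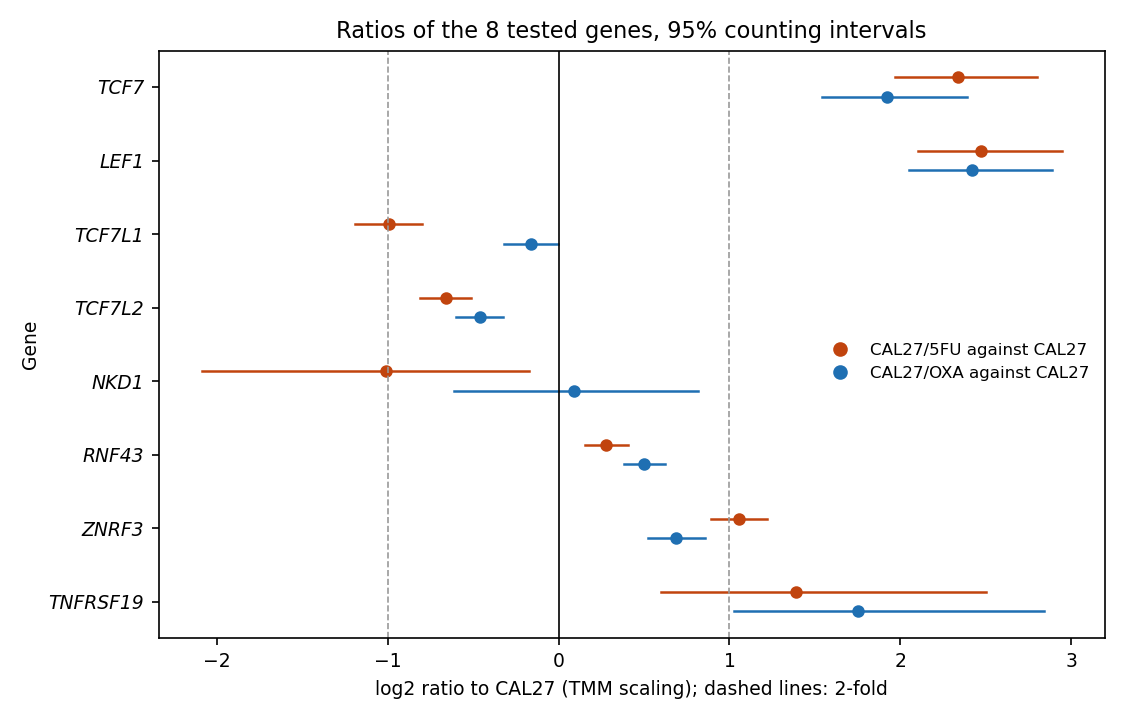
Log2 ratios of CAL27/5FU and CAL27/OXA to CAL27 for the 8 members that passed the filter, with 95% Clopper-Pearson intervals; dashed lines mark 2-fold. LEF1 and TCF7 lie wholly beyond the right dashed line in both lines, TCF7L1 and TCF7L2 lie left of 0, and TCF7L1 and NKD1 of CAL27/5FU sit at the left dashed line.

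Genes close to LEF1 and TCF7 on their chromosomes had median ratios smaller than those of LEF1 and TCF7 themselves. The 10 nearest tested genes around LEF1 had a median log2 ratio of 0.18 in CAL27/5FU and 0.17 in CAL27/OXA. Of these 10 genes, 1 was past 2-fold higher in each line. Of all tested genes, 8.46% were past 2-fold higher and 6.72% lower in CAL27/5FU, and 6.54% higher and 9.28% lower in CAL27/OXA. Around TCF7 the medians were -0.14 and 0.50, with 1 gene higher in CAL27/OXA, and around TCF7L1 they were -0.07 and 0.01, with 2 genes higher in CAL27/5FU and 1 in CAL27/OXA. Around ZNRF3, 10 genes had medians of -0.11 and -0.24. Around NKD1 the medians were -0.14 and 0.46, with 1 gene lower in each line, and around TNFRSF19 they were 0.25 and 0.24, with 1 gene higher and 1 lower in CAL27/OXA. Around BAMBI the medians were -0.03 and 0.03, with 2 genes higher in each line and 1 lower in CAL27/5FU.

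Genes with overlapping exons could add reads to some members, since the use of strand in counting is not given in the sources used here. TCF7 shares 210 exonic bases with SKP1 on the opposite strand, which had 9450, 9094 and 15277 counts in CAL27, CAL27/5FU and CAL27/OXA. SKP1 had its highest count in CAL27/OXA and TCF7 in CAL27/5FU, and the part of SKP1 reads in the TCF7 ratios was not tested. LEF1 shares 279 exonic bases with the antisense gene LEF1-AS1, TCF7L2 shares 300 with AL158212.2 and AXIN2 shares 1316 with AC004805.1, none of which is listed in the count table. RNF43 shares 4326 bases with the overlapping model AC004687.2, 1521 with TSPOAP1-AS1 on the opposite strand and 143 with SUPT4H1 (2368, 2336 and 2947 counts). GENCODE 29 lists 24 transcripts of TCF7 and 21 of LEF1. Both genes are known to give short forms that lack the part that binds β-catenin, and values per gene do not separate these from the full-length forms.

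By the distance between pairs of log2 ratios to CAL27, over the 3 libraries and among 11541 genes that averaged 100 counts or more, the genes most like LEF1 were ETV5, CYR61 and CHN1. ETV5, an ETS-family transcription factor, had 216, 1146 and 1342 counts, and 7 genes in all were within a distance of 0.25 of LEF1. The genes most like TCF7 were MGAT5B, LRRC34 and FAM167A, with 5 genes within that distance. Patterns like those of the other factors were common: 92 genes lay as close to TCF7L1, led by STN1, RPN1 and MRGPRX3, and 433 lay as close to TCF7L2, led by TEPSIN, NLRP2 and BAIAP2.

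Of 19 genes for β-catenin and its nuclear partners, the proteins that TCF/LEF factors work with, 18 were tested. Beside this and the following lists stand the shares of all tested genes, 8.46% higher and 6.72% lower in CAL27/5FU, and 6.54% higher and 9.28% lower in CAL27/OXA. In CAL27/5FU 1 was more than 2-fold higher and 0 were lower, and in CAL27/OXA 1 was higher and 1 lower. CTNNB1, which encodes β-catenin, had 10426, 8187 and 11219 counts in CAL27, CAL27/5FU and CAL27/OXA. Its log2 ratios to CAL27 were -0.36 (-0.40 to -0.31) and -0.08 (-0.12 to -0.05), both within 2-fold. The sign of the value for CAL27/OXA turned, to 0.05, under scaling by total counts and from FPKM. TLE3, a corepressor that binds TCF/LEF factors, had 1403, 1092 and 788 counts and was lower in CAL27/OXA, with a log2 ratio of -1.02 (-1.15 to -0.89). This call was lost under upper-quartile scaling (-0.99) and total counts (-0.89), and with FPKM. PYGO1, a coactivator of β-catenin, was the gene that was higher in both lines. It had 8, 239 and 43 counts and a log2 ratio of 4.60 (3.89 to 6.12) in CAL27/5FU, and the interval of its log2 ratio in CAL27/OXA was 1.13 to 3.54. PYGO1 passed the filter only through the resistant lines, so the filter helped decide its calls. Its level was low in each library, at 0.0238, 0.795 and 0.123 FPKM. AXIN1 and GSK3B, below, were named after their values were seen. So were PYGO1 and, below, FZD8, RSPO4, ASCL2 and WISP1, each of which lies under the mean of 100 counts set for naming genes.

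The destruction complex, which marks β-catenin for degradation, had 9 tested genes besides AXIN2, and 0 of them were past 2-fold in either resistant line. GSK3B, a kinase that phosphorylates β-catenin in this complex, lay just inside it in CAL27/5FU. It had 4602, 2337 and 5457 counts, with log2 ratios of -0.98 (-1.06 to -0.91) and 0.06 (-0.00 to 0.11). AXIN1, the ubiquitous relative of AXIN2, had 2894, 2821 and 3329 counts, with log2 ratios of -0.04 (-0.12 to 0.03) and 0.01 (-0.06 to 0.08). At the receptor level, 17 of 24 genes were tested. Of these, 2 (FZD8 and RSPO4) were higher and 0 lower in CAL27/5FU, and 2 (FZD4 and FZD8) were higher and 1 (KREMEN2) lower in CAL27/OXA. FZD8 had 2, 20 and 14 counts and passed the filter only through the resistant lines, so the filter helped decide its calls. FZD4, a Frizzled receptor, had 198, 365 and 490 counts and log2 ratios of 0.87 (0.62 to 1.13) and 1.11 (0.88 to 1.36), and its call in CAL27/OXA was lost from FPKM with a pseudocount of 1 (0.62). KREMEN2, a receptor of DKK antagonists, had 2395, 1608 and 1018 counts and log2 ratios of -0.58 (-0.67 to -0.49) and -1.42 (-1.53 to -1.32). LGR5, an R-spondin receptor that opposes RNF43 and ZNRF3 and is itself a β-catenin target, had 0, 1 and 0 counts.

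Other known targets of β-catenin went in both directions. Of 26 listed genes 20 were tested, and 7 were more than 2-fold higher and 4 (ASCL2, EPHB3, PPARD and WISP1) lower in CAL27/5FU. In CAL27/OXA 5 (CCND1, CCND2, FOSL1, NKD2 and SP5) were higher and 3 (ASCL2, EPHB3 and WISP1) lower. The median log2 ratio of the 20 genes was 0.76 in CAL27/5FU and 0.30 in CAL27/OXA. SP5, a zinc finger factor and a direct target in many cell types, had 39, 171 and 180 counts, so that both resistant libraries lay above CAL27. Its log2 ratios were 2.07 (1.62 to 2.67) and 1.97 (1.51 to 2.56). NKD2, the relative of NKD1, had 100, 224 and 248 counts and log2 ratios of 1.14 (0.81 to 1.51) and 1.11 (0.78 to 1.47). NKD2 was thus called in both lines, and the calls were lost from FPKM with a pseudocount of 1 (0.87 and 0.81).

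Among the cell cycle genes of this list, CCND1 (cyclin D1) had 4069, 11563 and 13533 counts and log2 ratios of 1.50 (1.45 to 1.55) and 1.54 (1.49 to 1.60). CCND2 (cyclin D2) had 505, 2233 and 7281 counts and log2 ratios of 2.13 and 3.66. FOSL1, an AP-1 subunit, had 2805, 8377 and 21063 counts and log2 ratios of 1.57 (1.51 to 1.63) and 2.72 (2.66 to 2.78). SOX9 was higher in CAL27/5FU alone by this call, with 385, 1117 and 492 counts and log2 ratios of 1.53 (1.36 to 1.70) and 0.16 (-0.03 to 0.36).

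In the opposite direction, EPHB3, an ephrin receptor and a target in intestinal crypts, had 925, 82 and 59 counts. Its log2 ratios were -3.47 (-3.85 to -3.18) and -4.11 (-4.57 to -3.78), so that both resistant libraries lay far below CAL27. PPARD had 6631, 2422 and 4545 counts and log2 ratios of -1.46 (-1.53 to -1.39) and -0.73 (-0.79 to -0.68). MYC, a target that is widely used as a readout, had 7779, 5676 and 7511 counts. Its log2 ratios were -0.46 (-0.51 to -0.41) and -0.24 (-0.29 to -0.19), and MYC was therefore not higher in either resistant line.

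**Figure D4:**
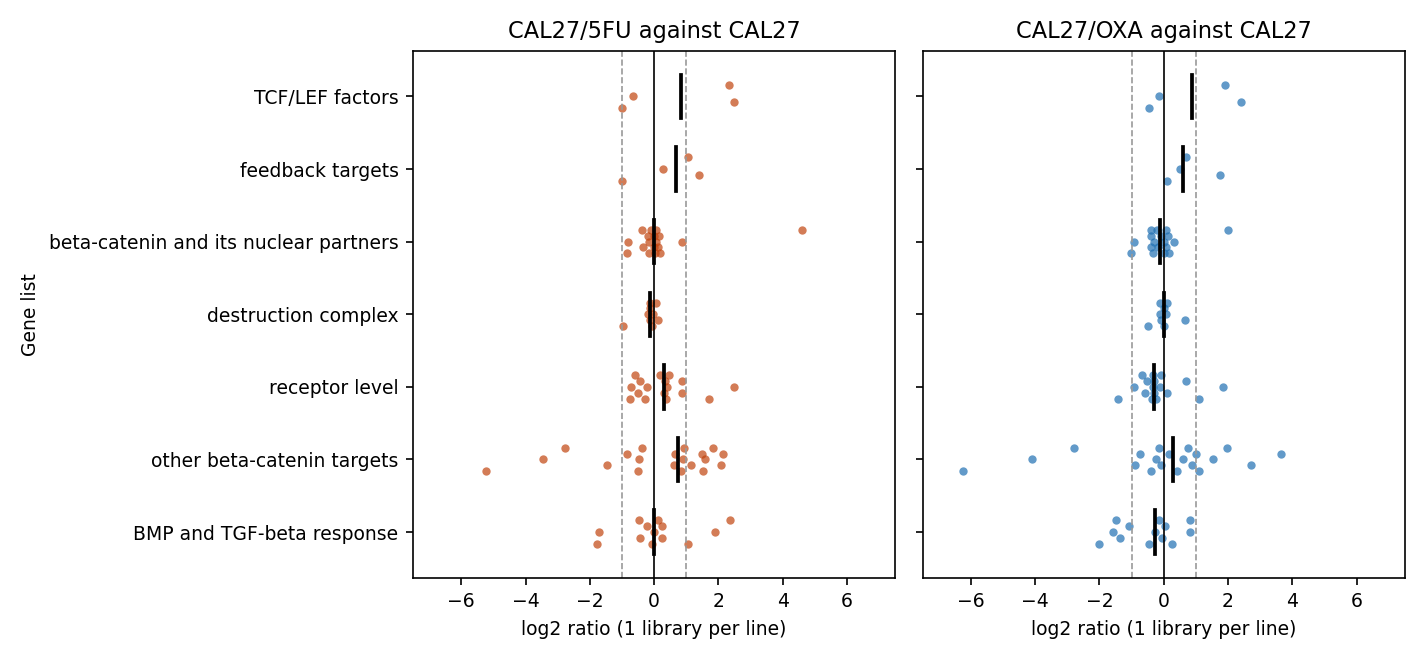
Log2 ratios to CAL27 of the tested genes in 7 lists, for CAL27/5FU (left) and CAL27/OXA (right); each point is a gene, black bars are list medians and dashed lines mark 2-fold. The destruction complex stays within 2-fold, while the other β-catenin targets lie on both sides of 0, with medians of 0.76 and 0.30; their leftmost point is WISP1, with 144, 2 and 0 counts.

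TCF/LEF proteins bind DNA through a short motif, and the promoters in RefSeq (GRCh38.p14, 250 bases before to 50 after a gene's start) were searched for its core. The letters were CTTTGAA and CTTTGAT, read on both strands as TTCAAAG and ATCAAAG, and the matches printed below do not overlap each other. Of 35116 promoters, 6.86% held at least 1 match. For the members, 12 promoters of 7 genes were in the table and 0 of them held a match. AXIN2, NKD1 and ZNRF3 were not among them. SP5, higher in both resistant lines, held 3 matches, and 0.0256% of all promoters held 3 or more. NKD2, also higher in both lines, held 0. Among the other β-catenin targets, matches are given for SP5 and NKD2 only, so the share beside SP5 describes a chosen gene and not the list. The SP5 promoter lies at chr2:170715087-170715386 on the plus strand and is shown, with the matches in capitals, because it carries the core in the window searched. They begin at bases 103, 142 and 167, counted from 1 at the 5′ end.
SP5 promoter: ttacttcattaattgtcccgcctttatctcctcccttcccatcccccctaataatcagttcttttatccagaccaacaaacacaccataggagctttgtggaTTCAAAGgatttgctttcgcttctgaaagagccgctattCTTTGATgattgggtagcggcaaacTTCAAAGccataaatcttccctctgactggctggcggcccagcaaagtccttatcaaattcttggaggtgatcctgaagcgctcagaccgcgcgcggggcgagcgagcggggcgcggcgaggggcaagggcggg
A match describes the letters in this window alone, and binding was not measured here.

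The label of the cells was checked against markers. All 12 squamous epithelial markers had counts above 3 in each library, and their summed FPKM was 6975, 1833 and 2531 in the order CAL27, CAL27/5FU, CAL27/OXA. The most abundant was KRT5 in CAL27 and CAL27/5FU, and SFN in CAL27/OXA. Of the 12 markers, 10 were more than 2-fold lower in CAL27/5FU, against 6.72% of all tested genes, and 8 in CAL27/OXA, against 9.28%. CDH1 and EPCAM were within 2-fold in both lines, as were TP63 and SFN in CAL27/OXA. TCF7 and LEF1 were higher in both lines, and the part of the lower markers in their ratios was not tested. TCF7 and LEF1 are abundant in T cells, and the 12 lymphoid markers summed to 0.898, 0.996 and 1.31 CPM in the same order. In FPKM, the lymphoid sum was 0.3295, 0.4916 and 0.6267. CD2, CD3D, CD3G and MS4A1 had 0 counts in all 3 libraries, and PTPRC had 0 counts in both resistant lines, which allows up to 3 counts in each. Other lymphoid markers had more counts in the resistant lines: LCK had 0, 5 and 12, CD7 had 0, 3 and 5, and CD79A had 0, 2 and 4. CD5 had 7, 7 and 20 counts and was called higher in CAL27/OXA, with a log2 ratio of 1.13 (0.03 to 2.81). CD5 passed the filter only through its 20 counts in CAL27/OXA, so the filter helped decide this call. CD3E had 7 counts in each library, CD8A had 15, 15 and 10, CD4 had 4, 0 and 0, and PTPRC had 2 in CAL27. The part of these in the TCF7 and LEF1 ratios was not tested. The most abundant lymphoid marker by FPKM was CD8A in CAL27 and CAL27/5FU, with 0.123 and 0.138 FPKM, and CD5 in CAL27/OXA, with 0.141.

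The 9 fibroblast markers summed to 7.56, 12.0 and 15.0 FPKM in CAL27, CAL27/5FU and CAL27/OXA, with COL3A1 and THY1 at 0 counts in all 3. Their most abundant gene was COL1A1 in CAL27 and LUM in the resistant lines. The 6 endothelial markers summed to 0.466, 2.41 and 1.42 FPKM, led by CDH5 in each library, while TEK had 1, 1 and 0 counts. In CPM, the fibroblast sum was 42.1, 47.5 and 50.4, and the endothelial sum was 2.64, 9.58 and 5.40. Not all markers followed the sums: COL1A1 had 1387, 1068 and 1050 counts, VWF had 44, 19 and 29, and PECAM1 had 13, 6 and 11. Of 4 tested fibroblast markers, 2 (COL1A2 and LUM) were more than 2-fold higher and 0 lower in each resistant line. Of 4 tested endothelial markers, 2 (CDH5 and CLDN5) were higher in each, and 1 (VWF) was lower in CAL27/5FU. CLDN5 had 2, 8 and 31 counts and passed the filter only through CAL27/OXA, so the filter helped decide its calls. Its log2 ratio in CAL27/5FU was 1.34, with an interval of -0.33 to 5.27 that includes 0. LUM had 120, 414 and 877 counts, and CDH5 had 43, 338 and 163. The shares of all tested genes given above stand beside these counts too. Both sums were higher in the resistant lines, as were TCF7 and LEF1, and their part in the ratios was not tested.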

How the data were processed

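Total RNA was isolated with TRIzol, libraries were made with an NEBNext Ultra kit, and a service company sequenced them on an Illumina platform. The submitters' processing notes name CASAVA 1.8, HISAT2 2.0.5 and the build GRCh38 (hg38). The counting tool, the annotation and the use of strand are not given in the sources used here. The authors deposited raw read counts per gene symbol, and FPKM values, for 19220 and 19225 genes. For 100% of the 14367 genes with counts in every library, the gene length implied by count, FPKM and total agreed between libraries within 0.1%, so the FPKM values carry no other scaling. A further 3 columns per table carry the names of the 3 lines with the number 2, match no sample label and were not used, so whether they are second libraries of these lines is not known here.

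Counts were scaled with TMM (edgeR 4.0.16, R 4.3.3), and log2 CPM had a prior count of 2. Intervals used SciPy 1.17.1. The interval of the TCF/LEF ratio came from the delta method on Poisson counts. The alternatives were total counts, upper-quartile scaling, size factors of DESeq2 1.42.0, other filters, prior counts and thresholds, and FPKM with pseudocounts of 1 and 0.1. The members, lists and naming rule were chosen with earlier results of these data known. All 10 members were named, as were CTNNB1, MYC, CCND1, LGR5 and pathway genes past 2-fold in a resistant line with a mean of at least 100 counts, and the 3 genes nearest to each factor in pattern; genes named outside this rule are marked in the text. CCN4 and TLE5 were matched by older symbols. Positions came from GENCODE 29 (GRCh38), which placed 18769 genes once. Protein sequences were not used here. A gene of the BMP and TGF-β list is not reported here and was left out of its counts.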

Additional observations from a re-analysis of the deposited data

Results flagged for a closer look

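MMP7, a matrix metalloproteinase and a known β-catenin target, had ratios of opposite sign in the resistant lines. It had 97 counts in CAL27, as against 355 in CAL27/5FU and 58 in CAL27/OXA. Its log2 ratio to CAL27 was 1.84 (1.54 to 2.20) in CAL27/5FU and -0.91 (-1.43 to -0.45) in CAL27/OXA, and both intervals leave out 0. The value in CAL27/OXA was within 2-fold and was not called. The direct log2 ratio of CAL27/OXA to CAL27/5FU was -2.75 (-3.22 to -2.39), with an interval from counting error alone. This difference could not be set against replicates, since each line had 1 library in the columns used. Among the members, none had ratios of opposite sign with both intervals away from 0.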

How the results depend on the processing

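Each member kept the sign of its log2 ratios under the 9 other scalings, filters, prior counts and units tried, and LEF1 and TCF7 stayed past 2-fold in both resistant lines, with lowest log2 ratios of 1.37 and 1.32 in CAL27/5FU and of 1.30 and 1.01 in CAL27/OXA. ZNRF3 was past 2-fold in CAL27/5FU in 9 of 10 settings, TNFRSF19 in 8 of the 9 that tested it in each resistant line and NKD1 lower in 4 of 9, while TCF7L1 was past it in 0 of 10. A filter of 50 counts leaves out TNFRSF19 and NKD1. The median of the tested members in CAL27/5FU was 0.84 with total counts, 1.04 without a filter (10 genes) and 0.31 from FPKM with a pseudocount of 1, which also gave 0.43 in CAL27/OXA; a pseudocount of 1 shrinks the ratios of genes under 1 FPKM. In CAL27/5FU, CAL27/OXA and the direct comparison, the genes past 2-fold went from 2076, 2163 and 1717 to 3454, 3273 and 2842 without a filter, to 814, 849 and 602 from FPKM with a pseudocount of 1, to 690, 708 and 519 at 4-fold, and to 1342, 1390 and 1028 with the whole interval past 2-fold. FPKM with a pseudocount of 0.1 gave 65.6% higher genes in CAL27/5FU. The genes of the 4 WNT lists past 2-fold went from 14, 13 and 10 to 9, 6 and 6 from FPKM with a pseudocount of 1, and in CAL27/5FU to 20 with total counts and to 18 without a filter or from FPKM with a pseudocount of 0.1. Without TCF7L2, the ratio of TCF7 and LEF1 to TCF7L1 was 0.163 in CAL27, as against 1.77 in CAL27/5FU and 0.851 in CAL27/OXA. No paired analysis was possible because each line had 1 library in the columns used. The counts of AXIN2, BAMBI, NKD1 and TNFRSF19, all under 60, give wide intervals.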

Other observations

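BAMBI dampens TGF-β and BMP signals, and genes of that response were measured beside it. Of 14 listed genes 13 were tested. In CAL27/5FU 3 (BMP4, SMAD6 and TGFBR2) were more than 2-fold higher and 2 (BMP2 and ID3) lower, and in CAL27/OXA 0 were higher and 5 (BMP2, ID1, ID2, ID3 and SMAD6) lower, beside the shares of all tested genes of 8.46% and 6.72%, and of 6.54% and 9.28%. ID3, an inhibitor of basic helix-loop-helix factors and a BMP target, had 1281 counts in CAL27, as against 375 in CAL27/5FU and 484 in CAL27/OXA, with log2 ratios of -1.77 (-1.95 to -1.61) and -1.59 (-1.75 to -1.44). ID1 had 6544, 6577 and 3516 counts and log2 ratios of 0.00 (-0.05 to 0.05) and -1.09 (-1.15 to -1.03). Its call in CAL27/OXA was lost with total counts (-0.95) and with FPKM. SMAD6 and ID2 were named after their values were seen, as both average under 100 counts. SMAD6 had 12, 50 and 4 counts and passed the filter only through CAL27/5FU, so the filter helped decide its calls. Its log2 ratio in CAL27/OXA was -1.36 (-3.86 to -0.05). ID2 had 20, 17 and 4 counts, with a log2 ratio of -2.02 (-4.52 to -0.93) in CAL27/OXA. The ligand BMP2 had 1569, 477 and 640 counts, with log2 ratios of -1.72 and -1.48. BMP4, by contrast, had 42, 225 and 87 counts, with log2 ratios of 2.36 (1.93 to 2.93) and 0.83 (0.31 to 1.43). The receptor TGFBR2 had 1399, 2948 and 2822 counts and log2 ratios of 1.07 (0.98 to 1.16) and 0.82 (0.73 to 0.92). Its interval in CAL27/5FU reaches below 2-fold.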
